A study of Arabidopsis thaliana with 357 samples.

Results

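JePs is an Arabidopsis thaliana line that carries both ein2-1, which blocks ethylene signaling, and sid2-2, which blocks the main route of salicylic acid (SA) synthesis. Its leaf transcriptome after treatment with flg22 was set against that of the Col-0 wild type, JEPS, and beside those of the 2 single mutants, JePS (ein2-1) and JEPs (sid2-2). The libraries were chosen by genotype and time alone: 21 libraries of JePs among 357 in the series, with 21 each of JEPS, JePS and JEPs. In the names a capital letter stands for an intact signaling sector and a small one for a mutated sector, with J for jasmonate (dde2-2), E for ethylene, P for PAD4 and S for SA, so all 4 lines have intact DDE2 and PAD4. Leaves of plants of each line were infiltrated with 1 µM flg22 and sampled at 6 time points from 1 to 18 h, while leaves left untouched served as 0 h. Each group had 3 replicates, and each replicate was a pool of 12 leaves from 4 experiments. A replicate is therefore already an average over plants, and each mutation is represented by 1 allele and the double mutant by 1 line.

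Flg22 is a peptide of bacterial flagellin that plant cells sense with the receptor kinase FLS2. Sensing starts a fast transcriptional program, and later output is shaped by hormones. Ethylene signals through the membrane protein EIN2 to the EIN3 family of transcription factors, and these also drive transcription of FLS2 itself. SA is made in chloroplasts by isochorismate synthase, the SID2 product, and its sensing by NPR1 and relatives turns on late defense genes such as the PR genes. The double mutant lacks both inputs, and each single mutant lacks one.

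The comparison throughout is the change from 0 h in one genotype minus the change from 0 h in another, on the log2 scale, called the response difference here. Values per library are read counts divided by that library's 90th percentile count and multiplied by 300, called normalized counts. A gene was called at a Storey q value below 0.05, a false discovery rate set across genes and contrasts together, provided that the log2 difference exceeded 1 in size. The 84 libraries of the 4 lines held between 549986 and 3564855 reads with a median of 1226174.5, and 11848 of the 26275 genes with at least 1 read passed the filter on low counts. The filter also removes genes with no read in 50 or more of the 357 libraries. Genes that are off in some lines or hours and high in others can therefore be missing. The median standard error of a response difference of JePs from JEPS was 0.53 on the log2 scale. All 4 mesophyll, 4 vasculature and 5 epidermis markers had reads in each of the 4 lines, and the summed normalized count of the 4 flower markers was at most 55.1. Leaves at 1, 2, 3 and 5 h were taken in the same part of the day and those at 0, 9 and 18 h at others, for all lines alike, so a change from 0 h includes the time of day while a difference between lines compares the same hour. The JEPS and JePS libraries of replicate 2 at 18 h and the JePs library of replicate 2 at 5 h stood apart from their groups most, and counts that rest on them are given below also without them. Sequencing lane and site were not always the same for all lines within a replicate. In replicate 1 all 4 lines shared a lane at each time. In replicates 2 and 3 JePs was in another lane than JEPS at every time, so their difference there also holds any lane difference. JePs was apart from all 3 other lines in replicate 2 at 0, 1, 2, 3 and 5 h and in replicate 3 at 2 h. In replicate 2 at 18 h JEPS and JePS were in lane 14 and JEPs and JePs in lane 15. In replicate 2 at 5 h JePs was in lane 13 at site tsl and the other lines in lane 12 at site umn. A fit with a lane term is among the alternatives at the end.

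The mutated genes were checked first. SID2 transcript in the JePs replicates was 21.4, 25.6 and 14.0 at 18 h, where JEPS had 503, 478 and 605. The groups did not overlap, and the level difference was -4.72 (SE 0.65, q = 2.8e-10). EIN2 transcript at 0 h was 179, 162 and 189.5 in JEPS, 39.1, 49.4 and 70.3 in JePS and 139, 37.5 and 91.8 in JePs. All JePs values lay below all JEPS values, but the difference of -1.08 (SE 0.35, q = 0.35) did not pass and was called only when replicate numbers were blocked within each time point (q = 0.038).

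Untreated leaves of JePs already differed from wild type in a small set of genes. At 0 h 12 of the 11848 genes (0.101%) were called, 4 higher and 8 lower in JePs, against 55 genes (0.464%) in JePS and 6 (0.0506%) in JEPs. With the replicate block the JePs count was 23 (0.194%). EBP (AT3G16770), an ethylene response factor, read 1621, 2226 and 3566 in JEPS and 36.6, 60.0 and 73.5 in JePs. The highest JePs value was far below the lowest JEPS value, and the level difference was -5.42 (SE 0.44, q = 5.1e-22). EBF2, the F-box protein that removes EIN3, read 343, 296 and 271 in JEPS and 51.2, 75.0 and 36.7 in JePs, again with no overlap and a difference of -2.41 (SE 0.33, q = 2.6e-08). In the single mutants EBP differed from JEPS by -5.08 in JePS and -0.03 in JEPs, so EBP in JePs was near its level in ein2-1 and far from that in sid2-2.

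The flg22 receptor gene itself was among the 8. FLS2 had normalized counts of 85.7, 75.0 and 73.7 in JEPS and 0, 3.75 and 18.4 in JePs at 0 h. JePs libraries had few or no reads of it, and the difference was -3.36 (SE 0.87, q = 0.0039). JePS had 6.52, 11.4 and 3.80 and JEPs 126, 77.8 and 33.3. JePs differed from JEPs (-3.39, SE 0.88, q = 0.0013), while its difference from JePS was 0.12 (SE 1.06, q = 1). BES1, a transcription factor of brassinosteroid signaling, was also lower in JePs at 0 h (-1.40, SE 0.33, q = 0.018), as was ARL, an organ size regulator (-4.16, SE 1.55, q = 0.044). ARL had 0, 1 and 1 reads in the JePs libraries. At the other end MRD1 read 7.14, 0 and 10.5 in JEPS, 265, 193 and 247 in JEPs and 183, 188 and 159 in JePs, a difference of 4.70 (SE 0.95, q = 1.6e-06) with 5.09 (SE 0.95, q = 5.1e-08) for JEPs. JePS read 0, 3.80 and 0, below every JePs library. EBP, EBF2, BES1, ARL and MRD1 were chosen for description after their values were seen.

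Before treatment JePs also differed from the single mutants in some SA-associated genes. PR2, a glucanase induced by SA, read 55.8, 59.3 and 80.0 in JEPs, 1427, 338 and 833 in JePs and 2204, 1052 and 1967 in JePS. Every JePs library was above every JEPs library (3.72, SE 0.80, q = 0.0022), and JePs overlapped with JePS. PR5, a thaumatin-like protein, read 112, 96.3 and 86.7 in JEPs and 805, 315 and 600 in JePs (2.53, SE 0.55, q = 0.0029). DMR6, an enzyme that hydroxylates SA, read 76.7, 70.4 and 100 in JEPs and 534, 368 and 704 in JePs (2.70, SE 0.54, q = 7.1e-04). Wild type had 400, 103 and 134 for DMR6, of which replicate 1 was the highest. Of the 14 tested genes of the SA output list described below, 0 were called against JEPS at 0 h. With the replicate block 2 were called higher in JePs, beside 0.194% of all genes called in either direction. PCR1, a cadmium resistance protein, and LURP1, a gene induced late by an oomycete, were instead lower in JePs than in JePS. PCR1 read 5230, 2495 and 5419 in JePS and 724, 491 and 508 in JePs (-2.94, SE 0.43, q = 2.1e-06), and LURP1 read 2387, 794 and 1958 and 542, 214 and 208 (-2.44, SE 0.59, q = 0.016). In all 25 genes differed at 0 h between JePs and JEPs (0.211%) and 23 between JePs and JePS (0.194%). These levels enter every response difference below. Levels at the time points are given beside many of them, and where none is given the value also holds any difference at 0 h. PCR1 was chosen after its values were seen.

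In wild type the change from 0 h differed in 6468 genes (54.6%) from that of the receptor mutant fls2, which measures what depended on flg22. The response of JePs differed from that of JEPS in 457 genes (3.86% of 11848) at 1 or more time points. The response was higher in JePs for 265 genes (2.24%) and lower for 192 (1.62%). The calls were few in number at 1 h (13 higher, 0.11%, and 20 lower, 0.169%), at 2 h (23, 0.194%, and 15, 0.127%), at 3 h (4 and 4, each 0.0338%), at 5 h (4, 0.0338%, and 11, 0.0928%) and at 9 h (16, 0.135%, and 22, 0.186%), and numbered 231 higher (1.95%) and 168 lower (1.42%) at 18 h. JePS had 201 called genes (1.7%) and JEPs 86 (0.726%) by the same rule. With replicate numbers blocked within each time point the counts were 1548 (13.1%) in JePs, 983 (8.3%) in JePS and 502 (4.24%) in JEPs. Leaving out replicate 1, 2 or 3 left 192, 162 and 111 genes in JePs. As a level after infiltration 1741 genes (14.7%) differed at 1 or more times. Without the 3 libraries that stood apart 355 genes were called, with 7 lower at 5 h and 150 higher and 142 lower at 18 h. Of the genes called lower in response, those also called lower as a level were 15 of the 20 (1 h), 9 of the 15 (2 h), 2 of the 4 (3 h), 6 of the 11 (5 h), 15 of the 22 (9 h) and 150 of the 168 (18 h). The median 0 h level difference of the genes lower at 2 h was 1.09, higher in JePs.

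**Figure D1:**
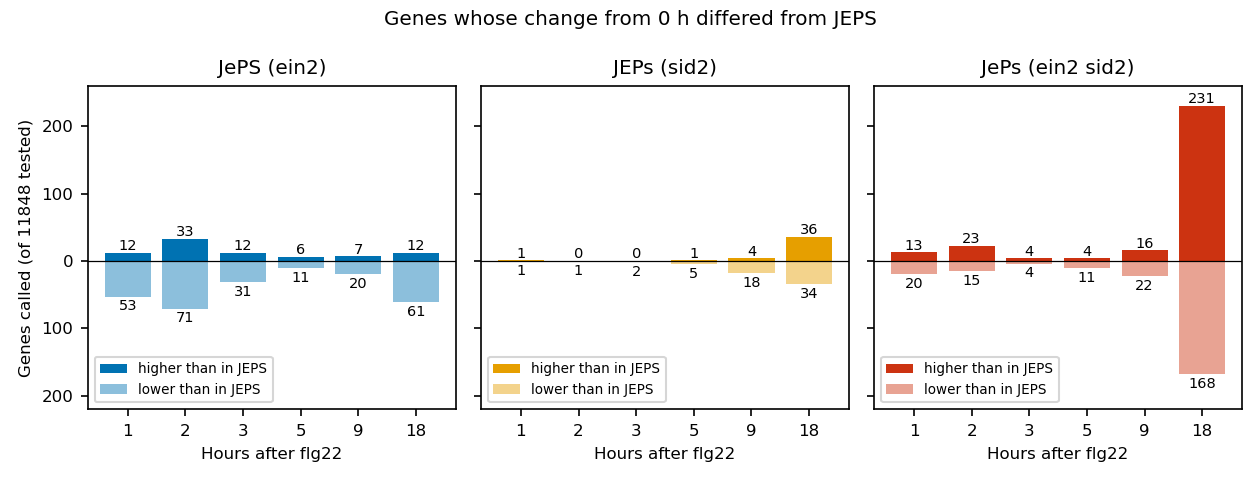
Number of genes called higher (solid, above 0) or lower (pale, below 0) than in JEPS at each time after flg22, for JePS, JEPs and JePs. The largest bars are those of JePs at 18 h, with 231 genes higher and 168 lower.

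The 20 genes called lower at 1 h had risen from 0 h by a median of 4.56 log2 units in JEPS and 2.496 in JePs. This rise is against untouched leaves, so it also holds infiltration and time of day. As a level at 1 h these genes differed from JEPS by a median of -1.44, and at 0 h they were higher in JePs by a median of 1.01. GSTF7, a glutathione S-transferase, rose in JEPS from 186, 35.5 and 57.9 at 0 h to 8623, 7412 and 6993 at 1 h, and in JePs from 139, 203 and 129 to 2757, 1588 and 3233. All JePs libraries lay below all JEPS libraries at 1 h, and the response difference was -2.52 (SE 0.46, q = 1.5e-04). At 2 h it was -2.14 (SE 0.46, q = 0.0028), with 19770, 17450 and 25120 in JEPS and 8392, 7868 and 10500 in JePs. The difference from JEPs at 1 h was -3.02 (SE 0.49, q = 3.3e-05), while that from JePS was -0.18 (SE 0.44, q = 1). GSTF7 was chosen after its values were seen. GSTF6, a transferase of camalexin synthesis, differed from JEPS by -2.44 (SE 0.50, q = 0.0018) at 1 h and -2.03 (SE 0.50, q = 0.02) at 2 h.

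AT3G16530, a lectin-like protein from the ethylene output list, was called at 4 consecutive time points. It read 6527, 6104 and 4893 in JEPS and 2662, 2029 and 1668 in JePs at 1 h, with no overlap. The response difference was -2.19 (SE 0.45, q = 0.0015) at 1 h, -1.96 (SE 0.45, q = 0.0077) at 2 h, -1.82 (SE 0.45, q = 0.018) at 3 h and -1.72 (SE 0.45, q = 0.033) at 5 h. In JePS the values were -2.08, -1.75, -1.70 and -1.79, and in JEPs -0.31, -0.27, -0.45 and -0.29. At 9 h the level difference between JePs and JEPS was -0.11. PR4, a hevein-like protein, was the only other of the 11 tested members of that list called without the replicate block, at 5 h, where JEPS read 294, 246 and 133 and JePs 32.9, 20.0 and 31.5 (-2.54, SE 0.68, q = 0.032). With the block EDF4 was also called higher at 1 h, and ERF2 and PR4 lower at 18 h.

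The genes with the most negative response difference at 1 and 2 h among named genes of sufficient level were WRKY30 and UGT73B5 at 1 h and UGT73B5 and RLP23 at 2 h. UGT73B5, a glycosyltransferase, reached 233, 144 and 175 in JEPS and 63.8, 82.4 and 30.8 in JePs at 1 h (-3.88, SE 1.15, q = 0.031), and 255, 147 and 84.0 and 22.5, 21.1 and 45.2 at 2 h (-4.60, SE 1.18, q = 0.0056). The JEPS libraries held only 0, 2 and 1 reads of UGT73B5 at 0 h, so its response values are imprecise. RLP23, the receptor-like protein that senses nlp20, reached 639, 802 and 703 in JEPS and 263, 309 and 308 in JePs at 2 h (-2.94, SE 0.73, q = 0.019). For RLP23 the level difference at 2 h, -1.28 (SE 0.43, q = 0.11), was smaller and passed only with the replicate block (q = 0.001), and JePs started from 87.8, 60.0 and 208 and JEPS from 92.9, 7.90 and 29.0. WRKY30 had no read in any of the 3 JEPS libraries at 0 h, so no fold is given for its response, and its call was lost with the replicate block (q = 0.076). At 1 h WRKY30 read 2219, 2051 and 1301 in JEPS, 597, 561 and 413 in JePS, 2007, 1817 and 894 in JEPs and 613, 571 and 216 in JePs, so both lines with ein2 lay below both lines with EIN2.

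The 23 genes called higher at 2 h had changed by a median of -2.82 log2 units in JEPS and -0.71 in JePs. EXPA6, an expansin, fell in JEPS from 571, 774 and 826 at 0 h to 27.4, 52.2 and 27.3 at 1 h, but in JePs from 746, 679 and 857 only to 125, 100 and 137. The lines did not overlap at 1 h, and the response difference was 1.71 (SE 0.40, q = 0.0077). EXPA6 was chosen after its values were seen. GH9C2, an endoglucanase, read 39.3, 40.9 and 107 in JEPS and 219, 338 and 323 in JePs at 3 h, where the response difference was 2.31 (SE 0.55, q = 0.011), and it was called from 2 h (2.15, SE 0.54, q = 0.021) to 5 h (2.40, SE 0.56, q = 0.0087). JePS read 175, 238 and 364 at 3 h. EXPA4, another expansin, was called at 3 h, where JEPS read 22.4, 26.1 and 32.3 and JePs 90.3, 143 and 96.2 (2.44, SE 0.63, q = 0.022). RGTA1, a subunit of Rab geranylgeranyl transferase, read 10.3, 22.8 and 16.4 in JEPS and 67.0, 47.1 and 42.1 in JePs at 1 h (2.94, SE 0.68, q = 0.0041). DFL2, a GH3 family protein, followed with 267, 463 and 344 and 549, 1035 and 827 (1.92, SE 0.48, q = 0.02).

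**Figure D2:**
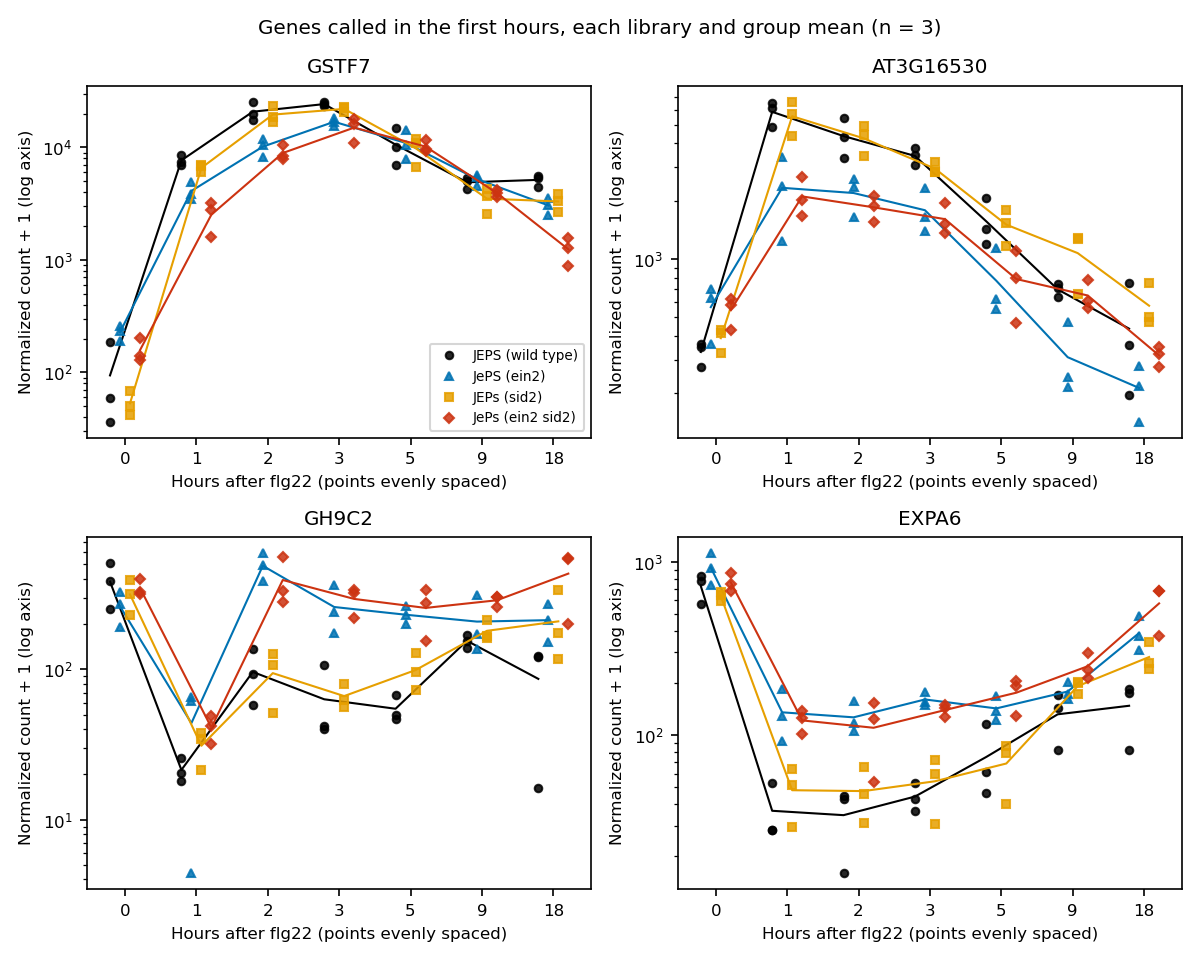
Normalized counts plus 1 on a log axis against hours after flg22 for GSTF7, AT3G16530, GH9C2 and EXPA6. Each point is 1 library and lines join the means of 3 replicates. At 2 h the JePs and JePS means of all 4 genes lie on one side of the JEPS and JEPs means.

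Over all genes called lower at 1 h the median response difference was -2.16 in JePs, -1.97 in JePS and -0.20 in JEPs. For genes called lower at 2 h the medians were -2.56, -2.81 and -0.23, and for genes called higher at 2 h they were 1.81, 1.54 and 0.33. The 3 comparisons share the JEPS libraries, and the genes were chosen on the JePs values, so these medians only describe where each line stood. At 3 h 8 genes were called (0.0675%), among them ASP3, an aspartate aminotransferase, with 294, 365 and 308 in JEPS and 194, 245 and 159 in JePs (-1.36, SE 0.34, q = 0.019), and ELF5A-3, a translation factor, with 2621, 2449 and 2340 and 1232, 1379 and 1194 (-1.26, SE 0.29, q = 0.0065). At 2 h the rule also named CCP1 (3.00, SE 0.89, q = 0.026) and the IQ-domain protein IQD28 (2.24, SE 0.55, q = 0.012) as higher.

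The SA output list, described further below, had 2 of 14 tested members called lower at 5 h and 3 at 9 h, against 5 and 6 with the replicate block. DMR6 read 186, 436 and 385 in JEPS and 87.8, 144 and 138 in JePs at 5 h, where the response difference was -2.84 (SE 0.68, q = 0.014). At 9 h DMR6 read 539, 832 and 947 and 79.3, 540 and 248 (-2.84, SE 0.67, q = 0.011). At 5 h no value of JePs reached the range of JEPS, whereas at 9 h the JePs library of replicate 2 reached the lowest JEPS value. The level difference of -1.43 (SE 0.46, q = 0.084) at 9 h did not pass without the replicate block (q = 1.3e-04 with it). WRKY53, a transcription factor of defense and leaf senescence, was called at 5 h (-2.30, SE 0.63, q = 0.033) and 9 h (-2.71, SE 0.63, q = 0.0052), but its level at 5 h differed by only -0.48 (SE 0.31, q = 0.7), with 652, 858 and 869 in JEPS and 512, 580 and 608 in JePs. WAK1, a wall-associated kinase, was also called lower at 9 h (-2.10, SE 0.57, q = 0.046).

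Other genes named by the rule at these times included genes of the cell wall. FLA16, a fasciclin-like arabinogalactan protein, read 39.1, 24.2 and 30.8 in JEPS and 80.5, 116 and 161 in JePs at 5 h (1.95, SE 0.54, q = 0.044). MYB95 read 11.0, 12.9 and 20.4 and 156, 48.0 and 62.1 at 9 h (3.25, SE 0.79, q = 0.0087), and MLP423, a latex-like protein, read 13.8, 16.1 and 14.6 and 70.8, 184 and 82.8 (3.21, SE 0.73, q = 0.0034). JePs lay above JEPS in every library for these 3 genes. EXT3, an extensin, was called lower at 9 h (-3.01, SE 0.80, q = 0.028), yet its levels there overlapped, with 1539, 1100 and 3050 in JEPS and 1053, 1056 and 1790 in JePs. At 0 h EXT3 read 50.0, 7.90 and 15.8 in JEPS and 278, 37.5 and 55.1 in JePs, and the level difference at 9 h was -0.55 (SE 0.41, q = 0.8). AOC1, an allene oxide cyclase of jasmonate synthesis, was called higher in JePs at 9 h (1.74, SE 0.43, q = 0.017).

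At 18 h the most negative response differences were in genes induced by SA. PCC1 (AT3G22231), a membrane protein gene under pathogen and circadian control, read 5782, 6824 and 8372 in JEPS and 35.7, 84.2 and 44.9 in JePs. The highest JePs library was far below the lowest JEPS library, and the response difference was -7.26 (SE 0.94, q = 2.9e-08). At 0 h PCC1 had read 4336, 588 and 471 in JEPS and 3761, 1309 and 1616 in JePs. JePS had 6742, 7327 and 6008 and JEPs had 30.8, 40.4 and 3.26 at 18 h. JePs differed from JePS by -5.64 (SE 0.94, q = 2.2e-04), and its difference from JEPs was -0.63 (SE 1.14, q = 1). LURP1 read 6319, 5822 and 6065 in JEPS and 92.9, 43.9 and 14.0 in JePs (-6.21, SE 0.93, q = 1.6e-06), and JePs again differed from JePS (-4.52, SE 0.93, q = 0.013).

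The neighbouring gene AT3G22235 fell as well. It read 2937, 4297 and 3202 in JEPS and 42.9, 18.3 and 11.2 in JePs (-7.47, SE 0.99, q = 2.6e-09), and differed from JePS by -6.44 (SE 0.98, q = 2.9e-06). In the reference (TAIR10.1) PCC1 spans chr3:7845823-7846833 and AT3G22235 spans chr3:7854419-7855814, 7585 bases apart with 0 protein-coding genes between them. The gene spans share an identical stretch of 202 bases. Reads were counted only where they matched a single gene, so the share of each copy in the counts is uncertain. AT3G22235 was chosen after its values were seen.

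The 250 bases before the annotated starts of both genes and of WRKY70 (AT3G56400) are printed because these 3 genes fell together in JePs and carry repeated matches to TGACG, the core of the element read by TGA factors, the partners of NPR1. Matches to TGACG on either strand (CGTCA on the strand shown) are in capitals. Sequences are from RefSeq TAIR10.1 and all 3 genes lie on the minus strand.
PCC1, chr3:7846834-7847083: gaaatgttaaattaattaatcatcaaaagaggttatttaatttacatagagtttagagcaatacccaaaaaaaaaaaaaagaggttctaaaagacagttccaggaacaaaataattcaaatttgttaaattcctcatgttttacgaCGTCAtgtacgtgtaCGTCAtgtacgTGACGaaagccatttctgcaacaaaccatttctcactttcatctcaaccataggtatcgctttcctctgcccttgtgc
AT3G22235, chr3:7855815-7856064: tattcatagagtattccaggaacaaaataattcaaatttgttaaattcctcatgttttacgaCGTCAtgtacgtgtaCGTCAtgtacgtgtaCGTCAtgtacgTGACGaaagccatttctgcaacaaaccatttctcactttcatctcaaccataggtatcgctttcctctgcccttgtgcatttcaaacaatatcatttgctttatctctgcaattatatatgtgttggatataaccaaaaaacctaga
WRKY70, chr3:20910624-20910873: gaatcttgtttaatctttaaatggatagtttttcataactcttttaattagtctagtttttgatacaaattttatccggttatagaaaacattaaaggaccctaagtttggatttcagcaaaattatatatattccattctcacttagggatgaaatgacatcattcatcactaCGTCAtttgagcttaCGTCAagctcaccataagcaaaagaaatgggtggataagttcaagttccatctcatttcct
The windows of PCC1, AT3G22235 and WRKY70 hold 3, 4 and 2 matches, and the first pair share 105 identical bases. TGACG or its complement was in 18.6% of the windows of 27437 protein-coding genes, in 19.5% of those of the genes tested, in 22% of the 168 genes called lower at 18 h and in 14.3% of 230 genes called higher. TTGAC, the core of the W-box read by WRKY factors, was in 44.9%, 45.4%, 57.1% and 36.1% of the same sets. The letters TTGACG hold both cores, so the matches overlap in part, and a match is a description of letters and not of binding.

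The SA output list of 23 genes, 14 of which passed the filter, had 6 members called lower at 18 h and none higher, beside 1.42% of all genes called lower there. Its median response difference was -2.65 against 0.05 for all genes. The single mutants went the same way, with list medians of -1.765 in JEPs and -1.408 in JePS, beside 0.058 and -0.007 for all genes. WRKY70, WRKY54 and ACD6 were also called lower in JEPs, and WRKY53 and DMR6 in JePS. WRKY70 read 2274, 3788 and 2298 in JEPS and 157, 146 and 107 in JePs (-4.05, SE 0.66, q = 1.3e-05), and WRKY54, its close relative, read 779, 641 and 868 and 42.9, 29.3 and 25.2 (-4.48, SE 0.86, q = 4.7e-04). DMR6 read 1698, 3437 and 2638 and 193, 626 and 510.3 (-3.93, SE 0.66, q = 3.6e-05). Each of these was below wild type in every library. ACD6 (-2.40, SE 0.47, q = 6.1e-04), an ankyrin protein that raises SA signaling, and WAK1 (-2.89, SE 0.57, q = 7.7e-04) completed the 6 together with WRKY53. With the replicate block 10 of the 14 were called lower, beside 3.6% of all genes.

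The PR genes, the usual markers of SA, did not all follow. PR1 was removed by the filter, although it was high in some groups, and has no test. Its normalized counts at 18 h were 7408, 19660 and 11470 in JEPS and 14.3, 117 and 8.41 in JePs, with 11040, 11410 and 9600 in JePS and 15.4, 312 and 0 in JEPs. The lines with sid2-2 were thus low and those with SID2 high in every library. PR2 read 595, 1978 and 1358 in JEPS and 557, 1548 and 791 in JePs, which overlapped, and its response difference of -1.67 (SE 0.92, q = 0.71) did not pass. PR5 read 605, 641 and 863 in JEPS and 179, 263 and 379 in JePs without overlap, but its response difference of -2.24 (SE 0.69, q = 0.12) was called only with the replicate block (q = 0.011).

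**Figure D3:**
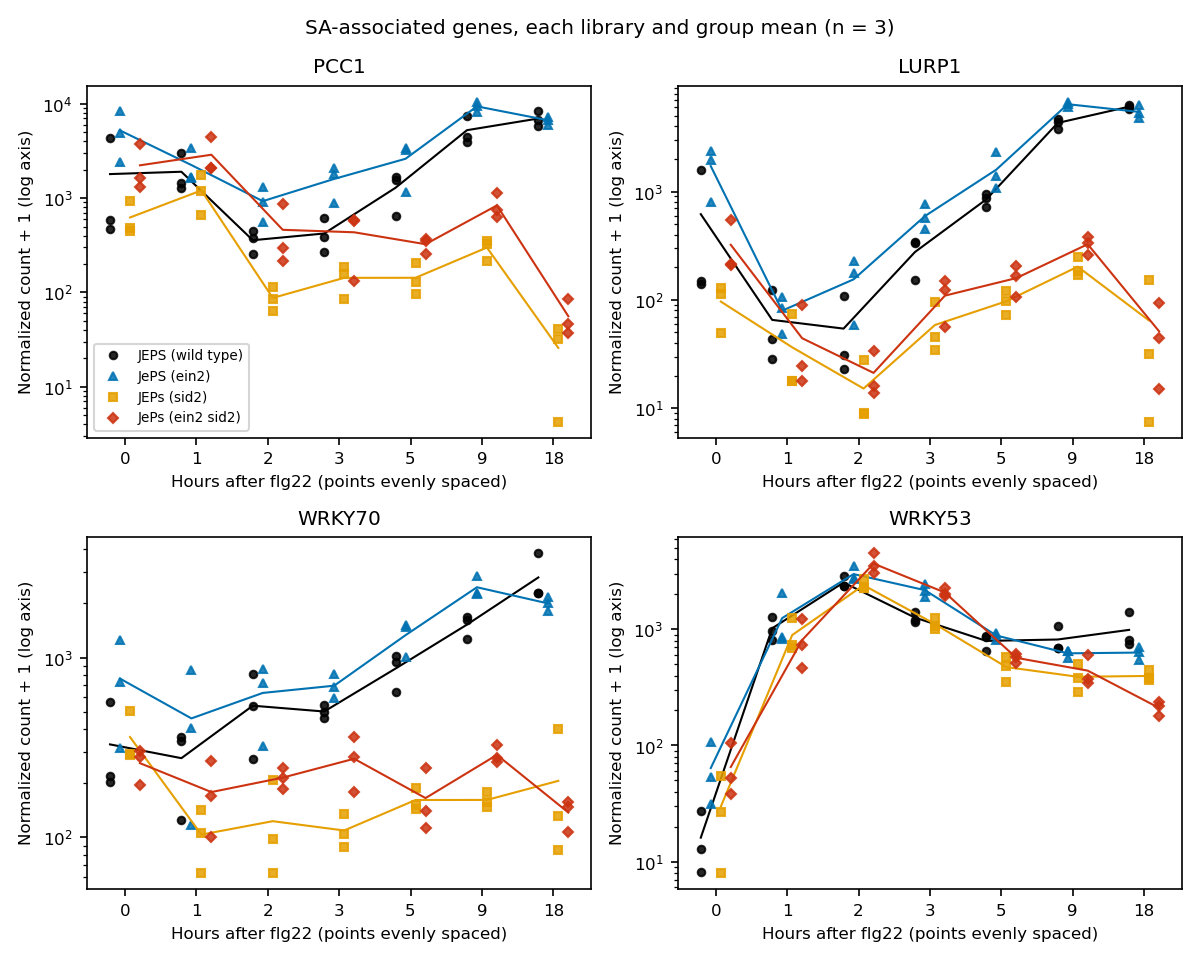
Normalized counts plus 1 on a log axis against hours after flg22 for PCC1, LURP1, WRKY70 and WRKY53. Each point is 1 library and lines join the means of 3 replicates. At 18 h JePs and JEPs points of PCC1, LURP1 and WRKY70 lie below JEPS and JePS points, while JePs is the lowest of the 4 lines for WRKY53.

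WRKY53 behaved in another way from WRKY70. At 18 h it read 813, 1398 and 750 in JEPS, 548, 707 and 633 in JePS, 362, 447 and 378 in JEPs and 179, 234 and 216 in JePs. The 4 groups stood in this order with no overlap, and each single mutant lay between wild type and the double mutant. The response difference from JEPS was -4.03 (SE 0.64, q = 1.2e-06), that from JePS -1.45 (SE 0.54, q = 0.74) and that from JEPs -2.02 (SE 0.62, q = 0.39). Only with the replicate block did WRKY53 pass against all 3 lines (q = 3.4e-09, q = 0.02 and q = 0.017). The level difference from JEPS was smaller, at -2.22 (SE 0.33, q = 3.0e-07). At 0 h WRKY53 had read 7.14, 11.8 and 26.3 in JEPS and 51.2, 37.5 and 104 in JePs.

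Of 14 tested genes of SA synthesis and its regulation 3 were called lower at 18 h and none higher, beside 1.42% of all genes called lower, with a median of -1.88. With the replicate block 8 were called lower at 18 h, beside 3.6% of all genes, among them SARD1, PAD4, EDS1 and NPR1. CBP60g, a calmodulin-binding activator of SID2 transcription, read 1292, 1134 and 1142 in JEPS and 343, 326 and 294 in JePs (-2.44, SE 0.62, q = 0.024). EDS1B read 121, 209 and 168 and 14.3, 3.66 and 5.61 (-4.96, SE 1.15, q = 0.0048), and NPR3, an SA receptor, read 518, 331 and 513 and 71.4, 80.5 and 98.1 (-2.09, SE 0.49, q = 0.01). All JePs libraries lay below all JEPS libraries for these 3 genes. CBP60g read 454, 964 and 469.6 in JEPs and 548, 686 and 650 in JePS, and neither single mutant was called without the replicate block, with which JePS was.

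Of 23 tested genes of pattern perception and early signaling 6 were called lower at 18 h (CERK1, LYK5, BIR1, MPK4, MKK4 and MKK5) and none higher, beside 1.42% of all genes called lower, and the list median was -1.33. The block gave 8 lower, beside 3.6% of all genes. At earlier hours none was called without the block. With it MKK4 and RBOHD, the NADPH oxidase of the oxidative burst, were lower at 1 h, PHI-1 was higher at 9 h, and FLS2, low in JePs at 0 h, was higher at 1, 2 and 3 h. CERK1, the chitin co-receptor kinase, read 309.7, 183 and 318 in JEPS and 78.6, 69.5 and 86.9 in JePs (-1.97, SE 0.46, q = 0.0097). MKK4, a MAP kinase kinase of the flg22 cascade, read 271, 173 and 200 and 57.1, 29.3 and 58.9 (-2.85, SE 0.65, q = 0.0054). MPK4, a MAP kinase, read 794, 1236 and 870 and 371, 413 and 365 (-1.48, SE 0.40, q = 0.041). JePs was lower in every library for all 3. FLS2 itself read 136, 50.9 and 120 in JEPS and 21.4, 7.32 and 25.2 in JePs at 18 h, and its response difference was 0.87 (SE 1.04, q = 0.98) from a level that was already low at 0 h.

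The ER chaperone list, which holds helpers of receptor folding, had 3 of 12 tested members called lower at 18 h and none higher (median -1.03), beside 1.42% of all genes called lower. Blocking gave 5 lower, beside 3.6%. CRT3, a calreticulin that folds the receptor EFR, read 2071, 2008 and 1900 in JEPS and 757, 915 and 852 in JePs (-2.02, SE 0.39, q = 4.3e-04). SDF2 (-1.61, SE 0.35, q = 0.0032) and ERDJ3B (-1.44, SE 0.35, q = 0.017), 2 partners of BiP, were the others. GSTF6 was lower again at 18 h, with 6944, 7520 and 7250 in JEPS and 1364, 1152 and 2383 in JePs (-3.37, SE 0.51, q = 1.3e-06). It differed from JEPs by -4.11 (SE 0.57, q = 2.0e-07), and its difference from JePS of -0.98 (SE 0.49, q = 1) did not pass. CYP81F2, a cytochrome P450 of indole glucosinolate defense, read 62.9, 86.4 and 25.0 in JEPS and 0, 0 and 14.0 in JePs (-3.91, SE 1.04, q = 0.012), and was the only 1 of 11 tested genes of that list called without the block, beside 1.62% of all genes called lower at 1 or more times. With the block 4 were called lower (CYP81F2, IGMT1, SOT16 and CYP83B1), beside 4.8%. Of 12 tested members of the tryptophan and camalexin list GSTF6 was called lower and GGP1, a peptidase of glutathione conjugates, was called higher at 9 h (1.00, SE 0.26, q = 0.026). With the block GGP1 fell below the fold minimum (0.98), TSA1, a subunit of tryptophan synthase, was called lower at 1 and 2 h, and CYP79B2 and CYP79B3, which convert tryptophan to its oxime, were called higher at 3 h.

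Families grouped by product name after the values were seen are given as counts at 18 h, where 1.42% of all genes were called lower and 1.95% higher (3.6% and 6.17% with the replicate block). Among 29 tested WRKY genes 4 were lower and none higher (WRKY15, WRKY53, WRKY54 and WRKY70), with a median of -0.63 and 6 lower with the block. Among 29 MAP kinase and MAP kinase kinase genes 5 were lower and none higher, with and without the block, with a median of -0.59. Among 23 lectin receptor kinases 4 were lower (median -1.11), also with the block, and among 20 cysteine-rich receptor kinases CRK5, CRK6 and CRK13 were lower and CRK42 was higher (median -0.81), with 4 lower and 1 higher under the block. Of 24 glutathione S-transferases GSTF2, GSTF6 and GSTF7 were lower and none was higher, while the family median was 0.09 and the block gave 3 lower and 2 higher.

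From 0 h to 18 h the 231 genes with a higher response in JePs at 18 h changed by a median of -2.26 log2 units in JEPS and -0.32 in JePs. KCS2 and HAT1 had the largest positive differences among named genes of sufficient level. KCS2, a fatty acid elongase, read 9.68, 0 and 5.00 in JEPS and 100, 43.9 and 67.3 in JePs (4.41, SE 1.03, q = 7.4e-04), and HAT1, a homeodomain factor, read 0, 0 and 10.0 and 78.6, 40.2 and 135 (3.98, SE 1.00, q = 0.0016). JEPS libraries held few or no reads of either gene, and these 2 differences have the standard errors near 1 that go with that. Of the 231 genes 221 were also called higher as a level at 18 h. EBP, which was low in JePs at 0 h, was an exception. Its response was higher in JePs at 18 h (2.14, SE 0.58, q = 0.038), while its level of 42.9, 146 and 146 stayed below the 629, 2008 and 810 of JEPS.

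Some genes of the cuticle and its waxes are given next, a choice of families and genes made after their values were seen and not from a fixed list. Of 11 tested ketoacyl-CoA synthases, the enzymes that elongate fatty acids, 4 were called higher and none lower, beside 1.95% of all genes called higher, with a median response difference of 1.34 and 6 higher with the replicate block. KCS1 read 121, 30.5 and 113 in JEPS and 479, 578 and 421 in JePs (2.32, SE 0.37, q = 3.8e-06), and CER3, an enzyme of alkane formation, read 281, 112 and 203 and 1221, 754 and 749 (2.15, SE 0.43, q = 9.8e-04). Neither gene overlapped between the lines. The JEPS library of replicate 2 that stood apart was the lowest for both. Also higher were KCS6 (1.54, SE 0.35, q = 0.007), the main wax elongase, CER2 (2.87, SE 0.62, q = 0.0011), which lengthens its products, LACS2 (3.62, SE 0.85, q = 0.0032), an acyl-CoA synthetase of cutin, the acyltransferases GPAT4 (1.56, SE 0.40, q = 0.023) and GPAT8 (1.71, SE 0.48, q = 0.046), and the lipid transfer protein LTPG1 (1.70, SE 0.46, q = 0.044). Among 30 tested lipid transfer proteins, the family of LTPG1, 5 were called higher and 2 lower (AT5G55450 and AT5G55460), against 9 and 2 with the block.

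Cuticle genes are known to be expressed in the epidermis, so the epidermal markers are given beside them. The summed normalized count of the 5 epidermal markers, with none of them at 0, was 458 to 638 in JEPS and 717 to 1082 in JePs at 18 h, and 1250 to 1587 and 1141 to 1329 at 0 h. At 18 h the ranges did not overlap and at 0 h they did. Only 3 of the 5 markers passed the filter, and 1 of these 3 had a response difference below 0 at 18 h. The KCS family gene AT2G26250 was the only marker called, and it is itself among the cuticle genes called. The part of the epidermal signal in the cuticle genes was not tested. In leaf pools fewer cells of a type and less RNA per cell cannot be told apart.

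Cell wall genes were likewise picked after their values were seen. XTH6, a xyloglucan endotransglucosylase, fell in JEPS from 2579, 1768 and 2134 at 0 h to 19.4, 15.3 and 42.5 at 18 h and in JePs from 2956, 2194 and 2290 to 164, 337 and 249.5. The groups did not overlap at 18 h and the response difference was 2.95 (SE 0.62, q = 0.0013). EXPA6 read 184, 81.4 and 175 and 371, 673 and 679 at 18 h (1.90, SE 0.36, q = 2.6e-04). CESA6, a cellulose synthase of growing walls, read 261, 137 and 295 and 593, 498 and 513 (1.24, SE 0.32, q = 0.028). By family, and beside 1.95% of all genes called higher at 18 h, 3 of 10 cellulose synthase genes (CESA2, CESA5 and CESA6), 2 of 10 xyloglucan endotransglucosylases, 1 of 10 expansins, all 3 family 9 glycosyl hydrolases and 5 of 23 arabinogalactan proteins were called higher and none was lower. The family medians lay between 0.98 for cellulose synthases and 1.86 for expansins. Under the block, beside 6.17% of all genes, these counts were 5, 4, 3, 3 and 11 higher, and 1 arabinogalactan protein was lower. Of 25 enzymes of starch metabolism 6 were called higher (DBE1, SS3, SBE2.1, ISA1, DPE2 and PWD) and none lower, with a median of 0.79 and 7 higher under the block.

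**Figure D4:**
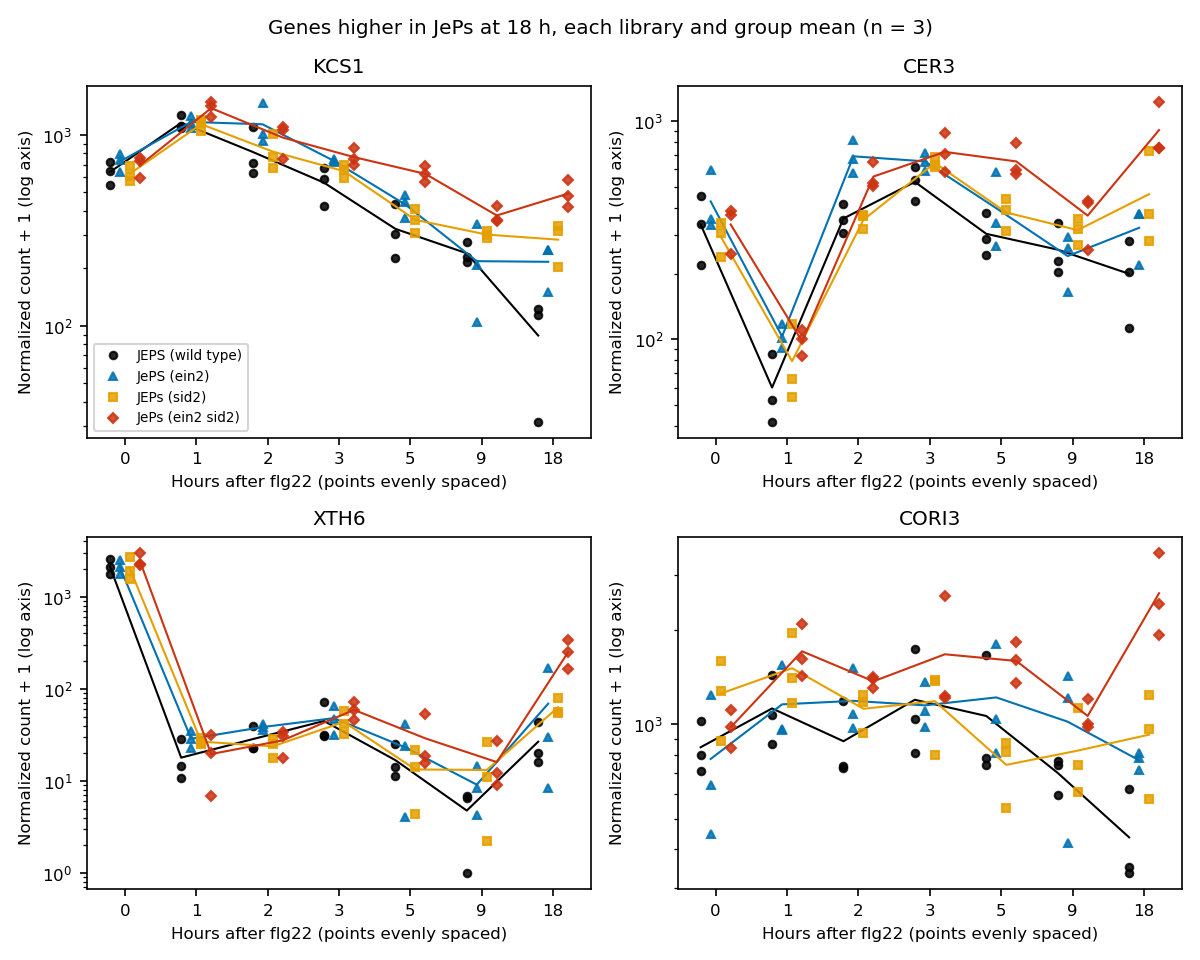
Normalized counts plus 1 on a log axis against hours after flg22 for KCS1, CER3, XTH6 and CORI3. Each point is 1 library and lines join the means of 3 replicates. At 18 h the JePs mean is the highest of the 4 lines and the JEPS mean the lowest in each panel.

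Of 21 tested members of the jasmonate list 3 were called higher and none lower, beside 2.24% of all genes called higher at 1 or more times, namely AOC1 at 9 h and CORI3 and CLH1 at 18 h, with a list median of 0.90 at 9 h and 0.89 at 18 h. Under the replicate block 6 were called higher, DDE2, JAZ9 and MYC2 in addition, beside 8.34% of all genes. CORI3, a cystine lyase induced by coronatine and jasmonate, read 334, 620.3 and 350 in JEPS, 780, 809 and 713 in JePS, 1238, 964 and 577 in JEPs and 3514, 2426 and 1929 in JePs. Every JePs library was above every library of the other 3 lines, but only the difference from JEPS was called (2.39, SE 0.55, q = 0.0077), and that from JEPs was called with the replicate block (q = 0.011). CLH1, a chlorophyllase, read 131, 203 and 150 in JEPS and 529, 801 and 594 in JePs (2.04, SE 0.50, q = 0.016). Jasmonate levels were not analysed here.

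None of the 21 listed photosynthesis genes was called, although all 21 had positive response differences at all 6 time points, with medians from 0.50 at 9 h to 0.93 at 18 h, beside -0.01 to 0.12 for all genes. With the replicate block 14 of the 21 were called higher at 1 or more times and none lower, beside 8.34% of all genes called higher. LHCB2.3, an antenna protein gene outside the list and named after its values were seen, was called at 18 h, where it read 363, 473 and 620 in JEPS and 2600, 3757 and 4164 in JePs (2.71, SE 0.56, q = 0.0019). LHCB genes are near-identical, so single-gene reads may divide unevenly among them. The sum of the 4 mesophyll markers, which are photosynthesis genes themselves, was 42950 to 82000 in JEPS and 82310 to 158400 in JePs at 18 h. Its part in the photosynthesis values was not tested.

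Of 13 tested genes of ethylene perception and signaling 0 were called by edgeR, with medians between -0.29 and 0.04. With the replicate block 3 were called higher and 2 lower at 1 or more times, beside 8.34% and 4.8% of all genes, including EBF1 and EBF2 as higher at 2 h. EBF2 was lower in JePs than in JEPS at 0 h, as given above, so its higher change need not be a higher level at 2 h. Of the senescence list (4 tested) and the circadian clock list (5 tested) 0 were called at any time, and with the block DIN1 was higher and NAP lower at 18 h.

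**Figure D5:**
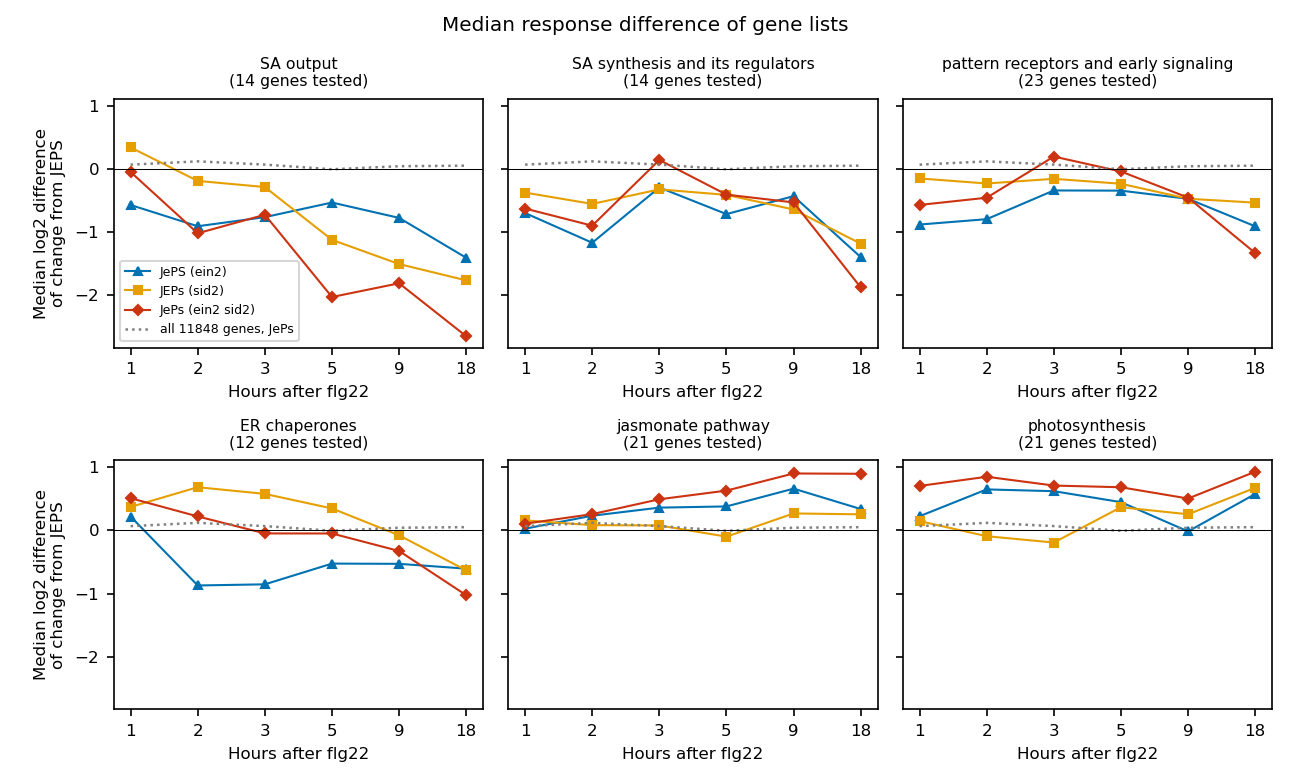
Median response difference (log2) from JEPS of 6 gene lists against hours after flg22, for JePS, JEPs and JePs, with the median of all genes in JePs dotted. JePs has the lowest median of the 3 mutants at 18 h for the SA, receptor and ER lists and the highest for the jasmonate and photosynthesis lists.

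What only the double mutant showed was asked in 2 ways. The first was whether a gene's response in JePs differed in 1 direction from JEPS, JePS and JEPs at the same time. None of the 11848 genes did (0%) by edgeR's quasi-likelihood test, and DESeq2, likewise without the replicate block, also gave 0. An unadjusted p under 0.05 in all 3 comparisons was found for 271 genes (2.29%). Without the filter 34 genes passed, and with a lane term 15. With the replicate block 24 genes (0.203%) passed, 6 at 1 h, 2 at 2 h, 1 each at 5 and 9 h and 14 at 18 h. Taken singly, 13 genes (0.11%) differed between JePs and JePS and 19 (0.16%) between JePs and JEPs, against 231 (1.95%) and 335 (2.83%) with the replicate block. The second question was whether the double mutant departed from the sum of the single mutant effects. No gene had a called interaction (0%), with 1198 genes (10.1%) at an unadjusted p under 0.05 at 1 or more times. At single times 1.87% to 3.33% of genes had such a p, less than a threshold of 0.05 gives without any difference. The fit without the block leaves out that replicates with the same number share experiments. Its 0 therefore cannot show that such genes are absent. DESeq2, likewise without the block, called 0. With the replicate block 2 genes (0.0169%) were called, and without the filter 30. A difference that does not pass does not show that the effects of the 2 mutations add up.

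Of the 24 genes that passed with the block, the following were picked after their values were seen. BGAL1, a beta-galactosidase of cell walls, read 77.4, 107 and 193 in JEPS, 368, 325 and 367 in JePS, 485, 219 and 701 in JEPs and 971, 918 and 1007 in JePs at 18 h. Every JePs library was the highest, and the blocked response differences were 3.02 (q = 9.6e-10) from JEPS, 1.80 (q = 2.5e-04) from JePS and 1.35 (q = 0.0095) from JEPs. FUM2, a cytosolic fumarase, read 315, 198 and 330, 713, 681 and 658, 1038, 831 and 753 and 2129, 2254 and 1909 in the same order of lines, with blocked differences of 2.72 (q = 5.2e-10) from JEPS and 1.14 (q = 0.018) from JEPs. XTH6, with blocked differences of 1.67 (q = 0.017) from JePS and 1.76 (q = 0.0089) from JEPs, WRKY53 and CRT3 were among the other genes at 18 h. The blocked interaction was 0.12 for BGAL1, -0.08 for FUM2 and -0.14 for CRT3, and none of these passed. At 1 h the antenna gene LHCB2.1 read 291, 538 and 232 in JEPS, 409, 411 and 122 in JePS, 422, 479 and 362 in JEPs and 1391, 2647 and 379 in JePs, with a blocked response difference of 1.94 (q = 3.7e-04) from JEPS. The JePs library of replicate 3 lay within the range of the other lines.

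Over all genes called at 18 h the single mutants had smaller median differences than the double mutant. For the 231 genes called higher in JePs the median response difference was 2.096 in JePs, 1.042 in JePS and 1.298 in JEPs. For the 168 genes called lower it was -2.14, -1.10 and -1.17. The 3 comparisons share the wild type libraries and the genes were chosen on JePs, so the medians carry no test. Within the lower genes the single mutants differed by gene. PCC1 differed from JEPS by -6.63 in JEPs and -1.62 in JePS, and GSTF6 by 0.74 in JEPs and -2.39 in JePS.

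The same pair of mutations was also present in lines that share no library with JePs or JEPS. The line jePs carries ein2-1 and sid2-2 on top of dde2-2 and was compared with jEPS (dde2-2), and Jeps carries them on top of pad4-1 and was compared with JEpS (pad4-1). These comparisons were added after the data were seen. Replicates with the same number share experiments in every genotype, so these lines share experiments with JePs and JEPS. In replicate 2 at 18 h jEPS was in the lane of JEPS and jePs in the lane of JePs. There jePs minus jEPS also holds any difference between the same lanes as JePs minus JEPS. Jeps and JEpS shared a lane in that replicate at 18 h. Of the 168 genes lower in JePs at 18 h, 163 were below 0 in jePs minus jEPS and 167 in Jeps minus JEpS, against 45.9% and 49.4% of all genes. Called lower there were 75 and 93 of them, where 1.55% and 2.05% of all genes were called lower. Of the 231 higher genes 231 and 230 were above 0, and 170 and 109 were called higher, beside 4.97% and 1.76% of all genes. PCC1 differed by -6.89 (SE 0.89, q = 3.2e-08) in jePs and -10.32 (SE 1.35, q = 9.0e-12) in Jeps, whose libraries held 2, 0 and 5 reads of it at 18 h, and KCS1 by 2.49 (SE 0.36, q = 2.4e-07) and 1.48 (SE 0.35, q = 0.0071). Of the 20 genes lower in JePs at 1 h, 19 and 20 were below 0 and 10 and 10 were called lower, beside 0.414% and 0.397% of all genes.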

How the data were processed

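Arabidopsis leaf RNA was read by Tag-Seq, in which a tag near the end of a transcript stands for that transcript. The authors aligned reads to TAIR10 transcripts with Bowtie 0.12.8, kept forward-strand reads that matched a single gene, and deposited raw read counts per gene. Reads of near-identical genes are therefore reduced or uncertain.

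The deposited counts of all 357 libraries (17 genotypes, 3 replicates) were fitted as they stood in R 4.3.3 with edgeR 4.0.16 (glmQLFit and glmQLFTest), with 1 mean per genotype and time and the 90th percentile count of each library as offset. Genes were kept with fewer than 50 libraries at 0 and the count at rank 15 above 25, which left 11848 of 33600. P-values were turned into Storey q values over each family of comparisons, with 90 in the family against JEPS, and a call needed q under 0.05 and an absolute log2 difference above 1. The 84 libraries analysed in detail ranged from 549986 to 3564855 reads, which sets the counting error. The fitting steps were tested on simulated counts for the 84 libraries, not for all 357. Only the blocked fit was given shared replicate effects there.

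Replicate numbers mark the same set of experiments in every genotype, per the study's schedules. Over 126 pairs of libraries with the same number and time, deviations from group means correlated at 0.0415 to 0.621 (mean 0.31, 123 above 0.1). The mean for different numbers was -0.235. Deviations in a group of 3 replicates sum to 0, so this negative mean is partly built in and is no separate baseline. The fit with replicate number blocked within each time point is given beside list counts and single tests whose call it changed. Alternatives were TMM scaling, no filter, DESeq2 1.42.0, the 84 libraries alone, Benjamini-Hochberg adjustment, no fold minimum, a block across times, a lane term and leaving out each replicate. Leaving out the libraries that stood apart was added after seeing the data, as were the comparisons in dde2-2 and pad4-1 backgrounds and the level differences from single mutants.

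Named genes were EIN2, SID2 and FLS2, the 2 called genes with the largest difference in each direction and time that have a symbol and a mean normalized count of at least 50 in a group, genes that differed from all 3 other lines (of which there were 0 without the block), and members of 12 gene lists. The members and lists were chosen with earlier results of these data known. Sequences are from RefSeq TAIR10.1.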

Additional observations from a re-analysis of the deposited data

Results flagged for a closer look

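With replicate numbers blocked within each time point, 2 genes departed from the sum of the single mutant effects by a test of the interaction itself. ATCG00570, a chloroplast gene, had a blocked interaction of -5.31 at 1 h. AT3G14280 had a blocked interaction of 5.21 at 2 h and of 4.74 at 5 h. Later values for AT3G14280 were 5.04 (9 h) and 5.002 (18 h). At 0 h AT3G14280 read 28.6, 7.90 and 0 in JEPS, 71.7, 60.8 and 53.2 in JePS, 6.98, 74.1 and 20.0 in JEPs and 0, 18.8 and 6.12 in JePs, and all of its interactions use these low counts. Neither gene was called without the block.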

How the results depend on the processing

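The 457 genes of JePs became 232 with the 84 libraries alone, 836 with Benjamini-Hochberg adjustment, 1548 with the replicate block within time points and 111 to 192 without 1 replicate. The 265 higher genes became 121, 496, 988 and 66 to 101 in the same order, and 490 with a lane term. The 192 lower genes became 111, 340, 569 and 45 to 105. JePS had 99 with the 84 libraries, 983 with the block, 409 with the lane term and 22 to 102 without 1 replicate. JEPs had 40, 502, 206 and 12 to 50, with 140 without the filter and 57 without the libraries that stood apart. Genes of JePs that differed from all 3 lines numbered 34 without the filter, 24 with the block and 15 with the lane term. The 13 genes that differed from JePS became 106, 8, 231 and 177 without the filter, with the 84 libraries, with the block and with the lane term, and 2 to 6 without 1 replicate. The 19 that differed from JEPs became 135, 6, 335 and 191, with 31 under Benjamini-Hochberg adjustment and 0 to 7 without 1 replicate. Interactions numbered 30 without the filter, 1 with Benjamini-Hochberg adjustment and 2 with the block. The 12 genes at 0 h became 32 without the filter, 23 with the block and 4 to 9 without 1 replicate. The 1741 level differences after infiltration became 2897 with the block and 752 to 1057 without 1 replicate, and the 6468 genes that depended on flg22 became 4164 to 5723 without 1 replicate. The cause of these shifts was not tested, beyond the fewer samples of some settings. TMM scaling, DESeq2, no filter, no fold minimum, the lane term and the block across times gave counts within 1.5 times of the 457. Of 1625 values of 125 gene tests under the 13 settings, 1263 stayed on the same side of the threshold. A further 328 kept their direction and were no longer called, and 34 became called. Of the values called in the main fit or under the setting, 0 changed direction. Values called in neither fit were not checked for direction. Leaving out 1 replicate ended 48 to 61 calls, and leaving out the libraries that stood apart ended 12. Depth limited genes with few reads in a group, where the standard error came near 1 or above.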
